A study of Mus musculus with 8 samples.

Results

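Notch signalling was described here through 10 genes of the RNA-seq table, chosen by their symbols: the receptors Notch1, Notch2 and Notch3, the ligands Jag1 and Jag2, the Fringes Mfng, Lfng and Rfng, and the targets Hes1 and Hey1. They are 10 of the 24062 genes listed, and all 10 symbols were found. The samples were stable clones of NIH3T3, an immortalised mouse embryonic fibroblast line. Clones 10 and 12 overexpressed FLAG-tagged 14-3-3ε, one of the proteins that bind phosphorylated partners, from a plasmid with a CMV promoter, and clones 2 and 3 were control clones with the vector. All were grown with 10% serum. The labels of both groups carry the same protocol, which describes isolation of single colonies under G418 at 800 µg/mL in the words of the 14-3-3ε construct, and no selection specific to control clones is given. RNA was measured by RNA-seq, and DNA methylation by RRBS (reduced representation bisulfite sequencing of CpG-rich MspI fragments), with 2 clones per group in each assay.

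Notch receptors are cell-surface proteins that are activated by Jagged or Delta-like ligands on a neighbouring cell. Ligand binding exposes the receptor to successive cuts by an ADAM protease and by γ-secretase, and the freed intracellular domain enters the nucleus, joins the DNA-binding protein Rbpj and a Mastermind coactivator, and switches on repressor genes of the Hes and Hey families. Fringe enzymes add N-acetylglucosamine to O-fucose on the receptor's extracellular repeats, which changes how it responds to Jagged and Delta-like ligands. Fibroblasts carry Notch receptors and Jagged ligands and are used as signal-sending and signal-receiving cells in co-culture.

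For each assay 1 table gives the comparison as the authors made it, without columns for single clones, so the spread between clones cannot be shown. Positive values were read as higher in 14-3-3ε clones, the usual convention of the tools named. Neither table states its direction, and every direction given here rests on this reading. The 14-3-3ε gene Ywhae, at -0.03 ± 0.18 (log2 fold change ± standard error) with adjusted p 0.942 in the authors' deposited table, showed no detectable rise. It therefore does not check the direction, and whether its count includes reads from the construct is not given. All 9 fibroblast markers looked up had mean normalized counts of 4843 or more in the authors' deposited table, and 5 of them were higher in 14-3-3ε clones and none lower; their part in the results below was not tested. Of 11 markers of epithelium, endothelium and blood, the authors' deposited table puts Cd68 at 110, Krt8 at 51.1 and the others at 10.2 or less, with Kdr at 0. With 2 clones on each side, an effect of 14-3-3ε and differences between clones cannot be told apart with confidence. RNA came from whole cultures, so fewer cells expressing a gene and less RNA per cell cannot be told apart.

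Among the Notch genes, the Fringe gene Mfng and the ligand gene Jag1 fell and the target gene Hes1 rose in 14-3-3ε clones, and the other 7 were not called. A gene was called at an adjusted p under 0.05. The authors' deposited table gives an adjusted p for 11482 genes, none with a mean normalized count under 33.1. Of the 10 Notch genes 8 had one, and 1 was higher and 2 were lower. Among all 11482 genes 6.15% were higher and 4.74% lower, or 10.9% in either direction. By the authors' deposited table the median log2 fold change was 0.15 over the 8 Notch genes and -0.0027 over all tested genes. With 3 of 8 called, these counts describe single genes and not the group.

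**Figure D1:**
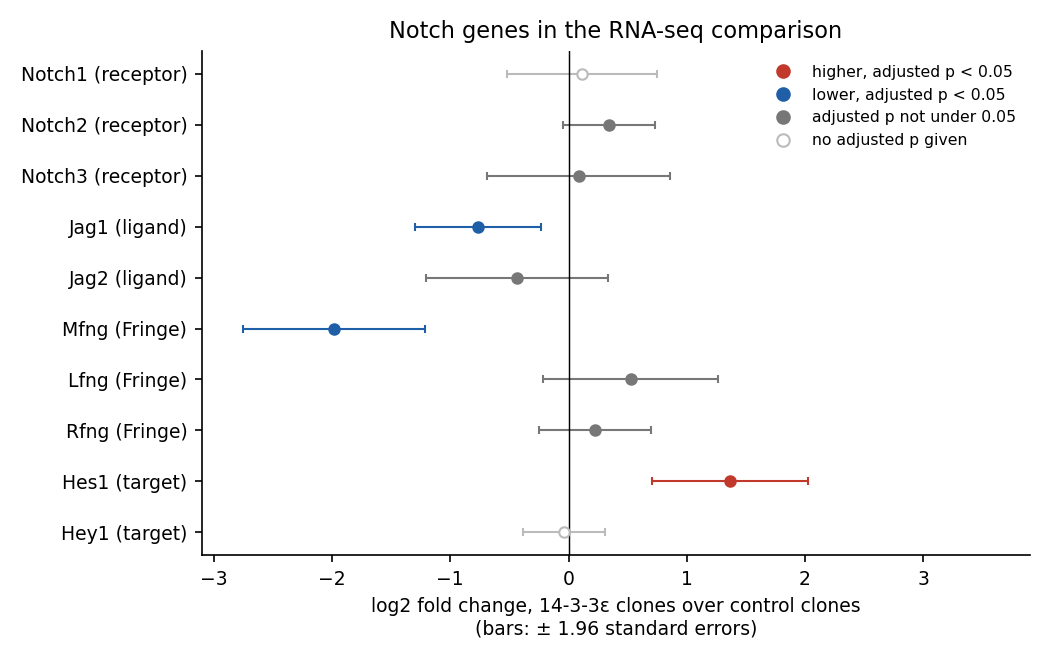
Log2 fold change of each of the 10 Notch genes, 14-3-3ε clones over control clones, as deposited by the authors, with bars of 1.96 standard errors on each side. Hes1 lies at 1.37, Jag1 at -0.77 and Mfng at -1.98. The bars of the other 7 genes cross 0, and open circles mark the 2 genes without an adjusted p.

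The receptor genes gave no call. For Notch2 the authors' deposited table lists a log2 fold change of 0.34 ± 0.20 (here and below, ± is the standard error), an adjusted p of 0.289 and a mean normalized count of 5478. Its interval of 1.96 standard errors on each side ran from -0.05 to 0.73. Notch3 is listed in the authors' deposited table at 0.09 ± 0.39 on the log2 scale, with adjusted p 0.931 and a mean normalized count of 40.1. That standard error leaves a wide interval, from -0.69 to 0.86. Notch1, the receptor best known from T cell development, had a mean normalized count of only 7.51 in the authors' deposited table and no adjusted p, with a log2 fold change of 0.11 ± 0.32. Mean normalized counts are not divided by transcript length, so they do not rank the receptors against each other. Fold changes in the table are drawn towards 0 for genes with few reads, so small values for Notch1 and for Hey1, below, say little.

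Of the ligand genes, Jag1 fell. In the authors' deposited table it stands at -0.77 ± 0.27 on the log2 scale, 1.70-fold lower in 14-3-3ε clones, with adjusted p 0.0445 and a mean normalized count of 682. This call lies close to the threshold, and it was lost when Benjamini-Hochberg adjustment was run over all 17478 genes with a p-value, low counts included (adjusted p 0.0669). Jag2, at -0.43 ± 0.39 with adjusted p 0.550 and a mean normalized count of 41.7 in the authors' deposited table, was not called. Its interval, from -1.20 to 0.34, includes the value of Jag1, so the ligand genes are not shown to differ. Few reads came from the Delta-like ligand genes. Dll1 was listed at 0, and the authors' deposited table gives Dll3 and Dll4 mean normalized counts of 6.33 and 18.8 without an adjusted p.

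Of the Fringe genes, Mfng, which encodes manic fringe, fell. It was 3.96-fold lower in 14-3-3ε clones: the authors' deposited table lists it at -1.98 ± 0.39 on the log2 scale, with adjusted p 2.82e-05 and a mean normalized count of 108. Only 9 of the 11482 tested genes had a lower log2 fold change. Lfng, the lunatic fringe gene that oscillates in the segmentation clock of the mouse embryo, was not called, at 0.52 ± 0.38, adjusted p 0.416 and a mean normalized count of 209 in the authors' deposited table. Rfng, the radical fringe gene, was not called either, at 0.22 ± 0.24, adjusted p 0.642 and a mean normalized count of 453 in the authors' deposited table. The interval of Mfng, from -2.76 to -1.21, does not overlap that of Lfng, from -0.21 to 1.26, or that of Rfng, from -0.25 to 0.69. The difference between Fringe genes was not tested itself, since it would need values per clone.

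Of the target genes, Hes1 rose. Hes1 encodes a basic helix-loop-helix repressor that is also induced by signals other than Notch. It was 2.58-fold higher in 14-3-3ε clones: the authors' deposited table lists it at 1.37 ± 0.34 on the log2 scale, with adjusted p 0.00154 and a mean normalized count of 384. Of the tested genes, 148 had a higher log2 fold change. Hey1, which encodes a related repressor, is listed in the authors' deposited table with a mean normalized count of 1.25, a log2 fold change of -0.04 ± 0.18 and no adjusted p, so a change in it was not detectable at this depth. Of the further Hes and Hey genes, Hes5 and Hey2 were listed at 0, as was the Notch feedback gene Nrarp. Mean normalized counts of Hes2, Hes3, Hes7 and Heyl lay between 0.270 and 27.1 in the authors' deposited table, below the level at which an adjusted p was given. Hes6, whose product opposes Hes1, was tested and not called, at 0.42 ± 0.31 (adjusted p 0.437) in the authors' deposited table.

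**Figure D2:**
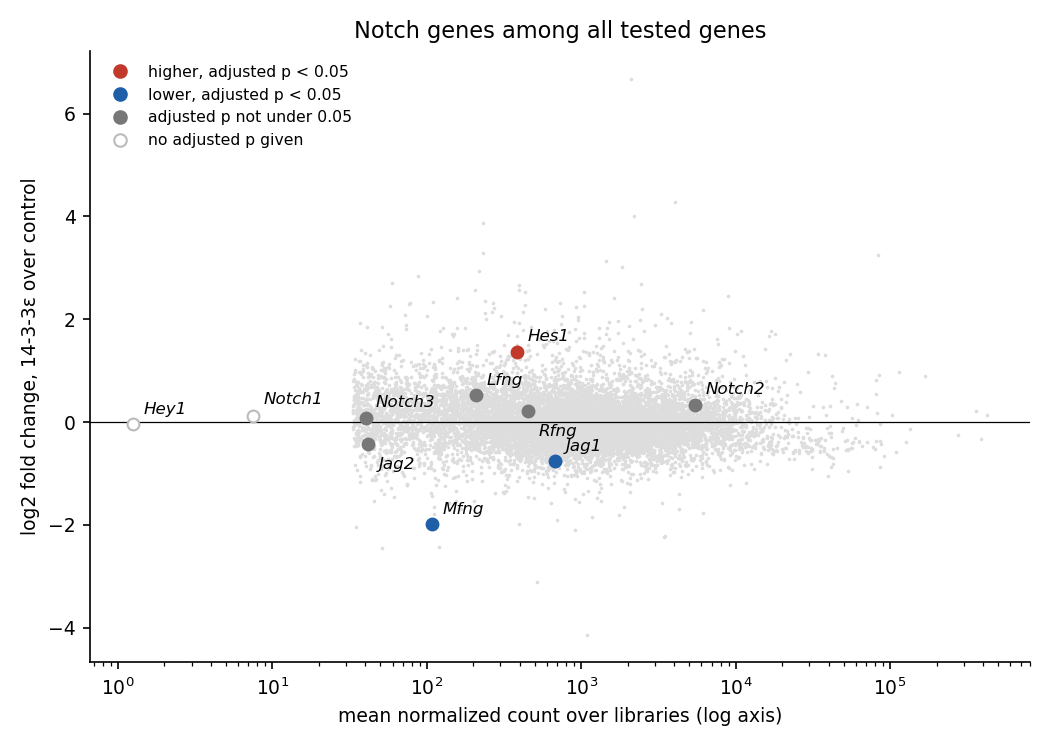
Mean normalized count over the libraries (log axis) against the log2 fold change, 14-3-3ε clones over control clones, as deposited by the authors, with all 11482 tested genes in grey. Mfng, at a count of 108 and -1.98, and Hes1, at 384 and 1.37, lie outside most of the cloud. Hey1 at 1.25 and Notch1 at 7.51 lie to the left of all tested genes.

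Among 57 other genes of the pathway, listed by role, 44 had an adjusted p, and 7 of these rose and 1 fell. That is 15.9% higher and 2.27% lower, beside 6.15% and 4.74% of all tested genes. Their median log2 fold change was 0.13, taken from the authors' deposited table, with 33 above 0 and 11 below. No test was made of the list, and it was drawn up with earlier results of these data known. The list also contains genes with wide roles outside Notch signalling, such as Ccnd1, Kat2b and Furin.

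The largest change in the list was that of Tle2, a corepressor gene of the Groucho family, whose products work with Hes repressors. It rose 3.93-fold, at 1.97 ± 0.26 on the log2 scale, with adjusted p 7.34e-12 and a mean normalized count of 1725 in the authors' deposited table. Tle2 overlaps its annotated neighbour Tle6, at 1.29 with adjusted p 0.000312 in the authors' deposited table, and the split of reads between them is uncertain. Its paralogs Tle1, Tle3 and Tle4 were not called, at -0.19, 0.22 and 0.11 on that log2 scale of the authors' deposited table. In all, 1 of 8 corepressor genes rose and none fell, beside 6.15% higher and 4.74% lower of all tested genes.

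Of 7 genes of the nuclear activation complex, 2 rose, beside 6.15% of all tested genes. Kat2b, an acetyltransferase recruited by Notch complexes, rose 2.24-fold, at 1.16 ± 0.26 on the log2 scale with adjusted p 0.000357 in the authors' deposited table. The Mastermind gene Maml2 rose as well, at 0.72 ± 0.24 with adjusted p 0.0345 in the authors' deposited table, a call that was lost when low counts were adjusted with the rest (adjusted p 0.0521). Rbpj itself, the DNA-binding partner of all Notch receptors, was not called. It stands at -0.65 ± 0.24, with adjusted p 0.0617 and a mean normalized count of 10057 in the authors' deposited table. Rbpj has processed pseudogenes in the mouse genome (Rbpj-ps1, Rbpj-ps2 and Rbpj-ps3), so its reads are uncertain. The remaining 4, Maml1, Maml3, Ep300 and Snw1, lay between -0.07 and 0.12 in log2 fold change by the authors' deposited table and were not called.

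Of tested genes of receptor glycosylation and maturation 1 of 4 rose, of cleavage 0 of 8 and of turnover 2 of 8, and none fell. Among all tested genes 6.15% rose and 4.74% fell, so these small counts describe single genes and not the roles. Furin, the convertase that makes the first cut in the Notch receptor as it matures, rose, at 0.69 ± 0.18 on the log2 scale with adjusted p 0.00348 in the authors' deposited table. Of the 8 genes of the later cuts, none was called. By log2 fold change in the authors' deposited table, Adam10 stood at 0.36 (adjusted p 0.219) and the γ-secretase gene Ncstn at -0.03 (0.967). Among Deltex genes, which encode ubiquitin ligases of a family that acts on Notch trafficking, Dtx4 rose, at 1.06 ± 0.33 with adjusted p 0.0195 in the authors' deposited table. Dtx3l rose too, at 0.79 ± 0.25 with adjusted p 0.0194 in the authors' deposited table. Dtx3l overlaps Parp9, an interferon-inducible partner gene at 1.10 (adjusted p 0.000241) in the authors' deposited table, so its reads are uncertain. Dtx2 and Dtx3 were not called and Dtx1 was listed at 0. The enzymes that put the first sugars on Notch repeats, from the genes Pofut1, Poglut1 and Eogt, lay between -0.27 and 0.17 in log2 fold change by the authors' deposited table, without a call.

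On the ligand side, Dlk1, a non-canonical ligand that lacks the usual receptor-binding domain, rose, at 0.90 ± 0.24 on the log2 scale with adjusted p 0.00388 and a mean normalized count of 42150 in the authors' deposited table. The genes for ligand endocytosis were not called, and Neurl1a was largest in size, at 0.64 ± 0.33 with adjusted p 0.215 in the authors' deposited table. Of the growth genes counted as targets, Ccnd1 (cyclin D1) fell, at -0.89 ± 0.17 with adjusted p 1.67e-05 in the authors' deposited table. Myc, at -0.77 ± 0.29 with adjusted p 0.0621 in the authors' deposited table, was not called. Hes1 and Ccnd1, which both respond to many signals, thus changed in opposite directions.

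**Figure D3:**
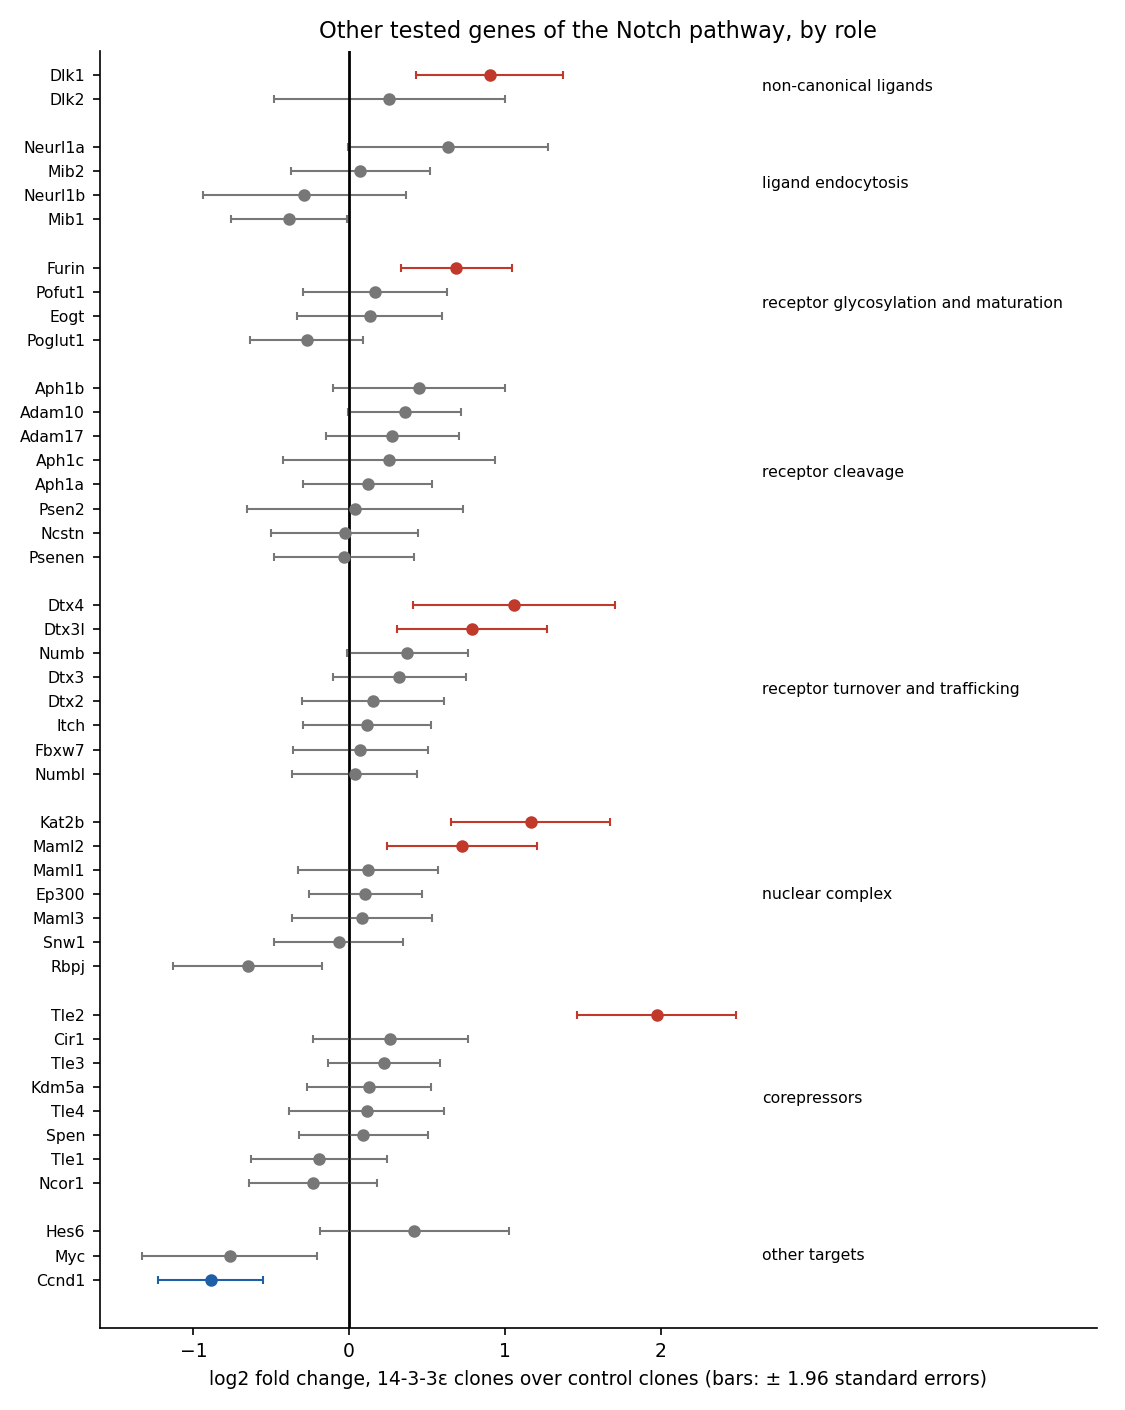
Log2 fold changes of the 44 other pathway genes with an adjusted p, 14-3-3ε clones over control clones, grouped by role, with bars of 1.96 standard errors on each side, from the authors' deposited table. Red points mark the 7 genes called higher, blue the 1 called lower (Ccnd1) and grey those not called. Tle2 at 1.97 stands furthest from 0, and the genes of receptor cleavage lie between -0.03 and 0.45.

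Methylation was read at 1572 cytosines within the annotated spans of the 10 Notch genes, of 2361680 listed in all, with positions in build mm10. Calls at q under 0.05 fell on 41 cytosines that were higher and 49 that were lower in 14-3-3ε clones, 5.73% of those listed. Over all listed cytosines 1.92% were higher and 2.83% lower, or 4.74% in either direction. The mean difference was 0.0574 percentage points within the Notch genes and -0.491 over all cytosines, averaged over the authors' deposited table. Called cytosines of both signs stood side by side in 7 of the 10 genes, while Mfng held only lower calls, Hey1 only higher ones and Lfng none. Cytosines of a gene share clones and reads and are not replicates, coverage is not in the table, and no source used here says whether the clones of a group were pooled. Of 718 CpGs listed on both strands 73 were called on at least 1, and in 62 of these both strands had differences of the same sign. In 14 both strands were called, always with the same sign.

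**Figure D4:**
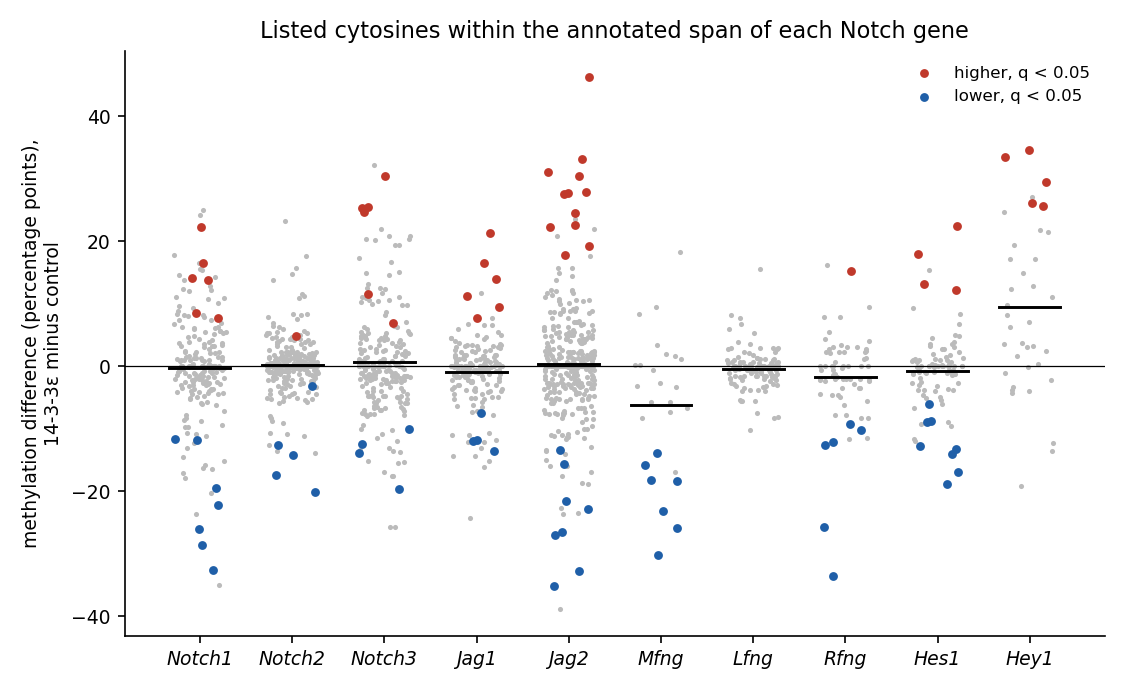
Difference in percent methylation, 14-3-3ε minus control in percentage points, at each listed cytosine within the span of each Notch gene, from the authors' deposited table. Points are spread sideways for legibility, red and blue mark calls at q under 0.05, grey points were not called, and black bars are means over cytosines. The mean is -6.17 in Mfng and 9.51 in Hey1 and between -1.77 and 0.656 in the other 8 genes.

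Mfng (chromosome 15, 78755882 to 78773516), the gene with the largest fall in RNA, also had the highest share of called cytosines of the 10, though few were listed. Of 26 listed cytosines 7 were called, all lower, which is 26.9%, and the mean difference was -6.17 percentage points, averaged over the authors' deposited table. Of these, 6 formed a run of 106 bp from 78759211 to 78759316, which lies 3329 bp inside the lower-numbered end of the gene. From that end the differences were -25.9, -15.7, -13.9, -30.1, -18.2 and -23.2 points in the authors' deposited table. The run covers 4 CpGs, and at 2 of them both strands were called. The uncalled cytosine inside it had a difference of -5.69 points, and the last called one outside, at 78763518, had -18.3 (q 0.00811), in the authors' deposited table. At position 78759288 the q-value is listed as 0, as at 347 cytosines in the table, and the coverage behind it is not given. The 9 cytosines listed just before the run, from 78759110 to 78759210, were not called and ranged from -8.33 to 18.4 points in the authors' deposited table. No listed cytosine lay within 1000 bp of the higher-numbered end of Mfng and only 3 lay near the lower-numbered end, none called, so methylation at the gene's ends was not measured here in any depth.

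Hes1 (chromosome 16, 30065357 to 30067796), which rose in RNA, had calls of both signs within a short distance. Of 94 listed cytosines 4 were higher and 8 lower, and the mean was -0.733 points, averaged over the authors' deposited table. A run of 4 lower cytosines from 30066089 to 30066159 had differences of -8.90, -12.7, -18.7 and -17.0 points in the authors' deposited table. Further on, between 30066259 and 30066281, 4 cytosines were higher by 12.2 to 22.4 points, with 1 lower cytosine at -8.71 among them, in the authors' deposited table. A further 3 lower cytosines lay from 30066924 to 30066936, with a mean of -11.0 points in the authors' deposited table. The direction of methylation in Hes1 was thus mixed over less than 1000 bp.

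Jag1 (chromosome 2, 137081451 to 137116520), which fell in RNA, had 6 higher and 4 lower cytosines of 184 listed, 5.43%, close to the share over all cytosines. None of its calls formed a run of 3 or more of 1 sign within 200 bp. Among called cytosines the largest difference was a rise of 21.3 points at 137115430 (q 7.84e-09), and the other strand of that CpG was also higher, by 11.3 points, in the authors' deposited table. Within 1000 bp of its start, 2 of 200 listed cytosines were higher and 4 lower, with a mean of -1.23 points, averaged over the authors' deposited table.

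Hey1 (chromosome 3, 8663359 to 8667038), hardly detected in RNA, had 5 higher cytosines of 38 listed and a mean difference of 9.51 points, averaged over the authors' deposited table. They lay within 193 bp, from 8666755 to 8666947, near the higher-numbered end of the gene, and rose by 25.7 to 34.7 points in the authors' deposited table. Just beyond that end both signs were called. Within 1000 bp outside the gene 3 cytosines were higher and 4 lower of 79 listed, with a mean of -3.63 points, averaged over the authors' deposited table. The RefSeq table places another gene, LOC115489673, over this end from 8666924 to 8669688.

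**Figure D5:**
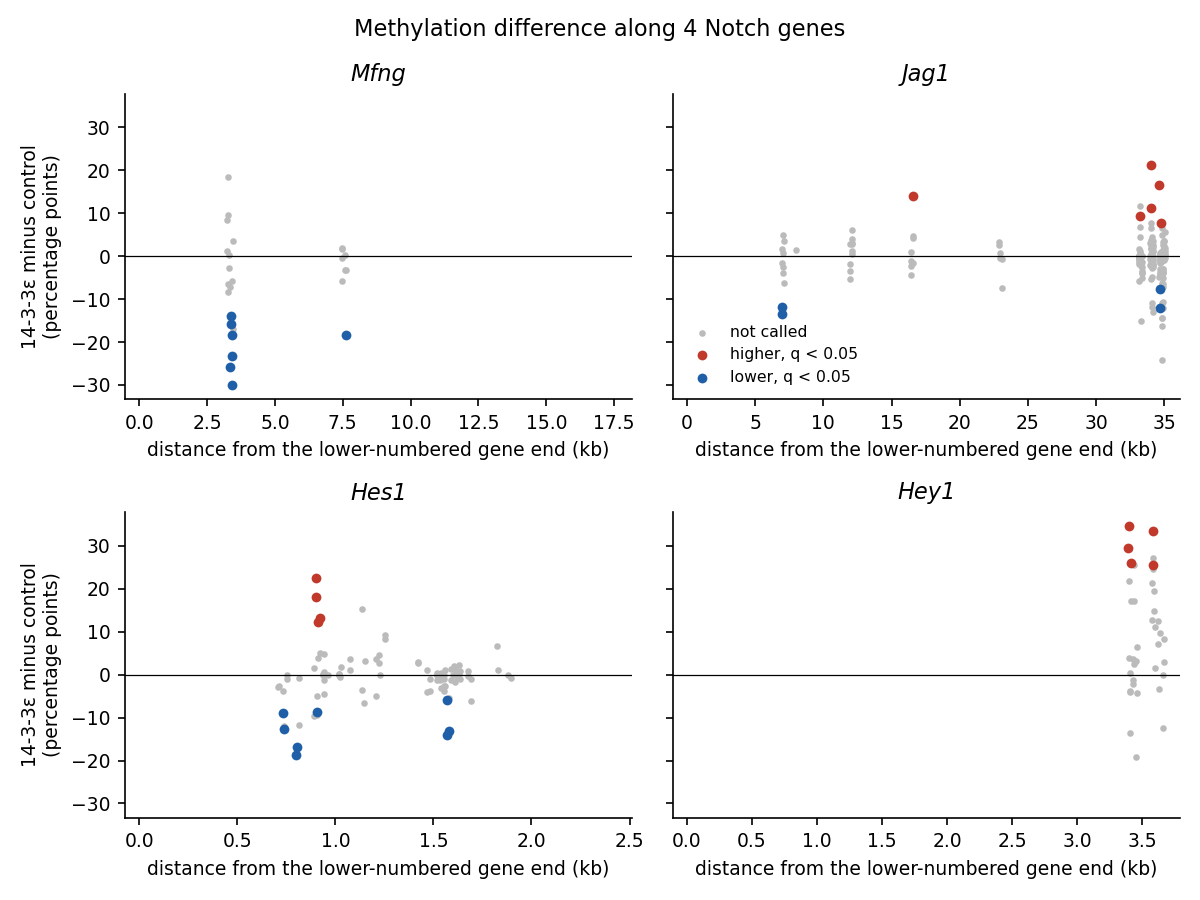
Difference in percent methylation, 14-3-3ε minus control, along Mfng, Jag1, Hes1 and Hey1, by distance in kb from the lower-numbered end of each gene, from the authors' deposited table. Red and blue points were called at q under 0.05 and grey points were not. The lower calls of Mfng cluster 3.3 to 3.4 kb from that end. In Hes1 a lower call stands among higher ones around 0.9 kb, and the calls of Hey1 are all above 25 points.

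Elsewhere, runs of at least 3 called cytosines of 1 sign within 200 bp, with no call of the other sign between them, lay in the receptor genes Notch1 and Notch3, in Jag2 and in Rfng. Notch1 had a run of 3 lower cytosines from 26487764 to 26487845 on chromosome 2, with a mean of -22.0 points over the called cytosines (as for the runs below), and one of 3 higher cytosines from 26503053 to 26503208, near its start, with a mean of 14.9 points in the authors' deposited table. Notch3 had 3 higher cytosines from 32143344 to 32143538 on chromosome 17, with a mean of 26.8 points in the authors' deposited table. Just beyond the 200 bp limit, at 32143557, a further cytosine was higher by 11.6 points (q 0.0298) in the authors' deposited table. Jag2 (chromosome 12), with most cytosines listed (361), had 12 higher and 8 lower. They included a run of 4 higher ones from 112913765 to 112913906 at a mean of 23.1 points and one of 3 lower ones from 112920312 to 112920324 at -28.8 points in the authors' deposited table. Rfng (chromosome 11) had 5 lower cytosines from 120783889 to 120784046, with a mean of -15.6 points in the authors' deposited table. They lay 205 bp inside its higher-numbered end, near its annotated start. Within 200 bp of each of these runs in Notch1, Jag2 and Rfng, at least 1 cytosine was called with the other sign. Notch2 had no run, with 1 higher and 5 lower cytosines of 256 (2.34%).

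In all, 5 of the 10 genes held a lower run and 4 a higher one. The 4 higher cytosines of Hes1 are not counted as a run because of the lower one among them. Of 16672 protein-coding genes with at least 5 listed cytosines, 15.3% held a lower run and 10.7% a higher one. Of the 13559 with at least 26, the fewest in any of the Notch genes, 18.2% held a lower run and 12.9% a higher one. The Notch genes held up to 361 listed cytosines, and more listed cytosines give more room for a run. These shares were not matched for the number listed, so no excess of runs in the Notch genes is shown. Runs stood in called and uncalled genes alike: Mfng and Hes1 held lower ones, as did Jag2 and Rfng, whose RNA was tested and not called. Notch1, which had no adjusted p, held a lower run too.

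At the annotated starts, or at both gene ends where no start was given, no window was called. A window of 1000 bp on each side was called when at least 5 cytosines were listed, at least 3 of them and 10% were called, and none in the other direction. None of the 10 genes had a called window. Mfng could not have one, with 3 and 0 cytosines listed at its ends. A stricter rule of 10 listed, 5 called and 20% could only give the same result, since it lies within the first. Of 14502 genes with an annotated start and enough cytosines, 1.21% had a window called higher and 2.12% one called lower. For Hes1, Hey1 and Mfng both annotated ends were used, so their windows are unlike those of the 14502 genes. Calls of both signs kept the lower-numbered end of Hes1 (4 higher and 5 lower of 37) from being called. The higher-numbered end of Hey1 also held calls of both signs (8 higher and 4 lower of 117), and there neither sign alone reached 10%. Where a window held at least 5 cytosines its mean lay between -1.74 points at the lower-numbered end of Hes1 and 1.38 points at the start of Notch1, averaged over the authors' deposited table.

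The 250 bases before the start are shown for Jag1, Notch2 and Lfng, where the largest shares of CpG cytosines were listed and none was called. They are RefSeq sequences of build GRCm38.p6, the assembly of mm10, read 5′ to 3′ on the gene's strand. Capitals mark the positions of listed cytosines, a C for one on the gene's strand and a G for one on the other strand. The Jag1 stretch is chr2:137116521-137116770 on the minus strand, that of Notch2 is chr3:98013288-98013537 on the plus strand and that of Lfng is chr5:140607091-140607340 on the plus strand.
Jag1: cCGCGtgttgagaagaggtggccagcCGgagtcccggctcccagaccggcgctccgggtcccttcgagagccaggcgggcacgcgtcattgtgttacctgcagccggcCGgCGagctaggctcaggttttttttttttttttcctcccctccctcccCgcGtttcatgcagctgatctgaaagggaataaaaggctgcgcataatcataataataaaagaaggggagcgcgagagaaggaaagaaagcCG
Notch2: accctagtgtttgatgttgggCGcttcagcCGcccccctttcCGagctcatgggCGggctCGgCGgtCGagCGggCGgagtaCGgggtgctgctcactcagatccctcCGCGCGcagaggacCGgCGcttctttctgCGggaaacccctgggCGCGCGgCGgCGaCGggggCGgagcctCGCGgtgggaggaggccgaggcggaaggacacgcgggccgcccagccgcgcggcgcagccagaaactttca
Lfng: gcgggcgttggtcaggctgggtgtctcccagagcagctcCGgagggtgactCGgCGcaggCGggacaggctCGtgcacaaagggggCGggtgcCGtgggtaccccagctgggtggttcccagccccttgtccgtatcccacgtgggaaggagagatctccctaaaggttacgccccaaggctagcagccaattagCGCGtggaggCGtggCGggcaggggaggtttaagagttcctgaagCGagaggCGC
In Jag1 14 of 40 CpG cytosines were listed, with differences from -2.69 to 8.71 points in the authors' deposited table. Notch2 had 50 of 68 listed, from -4.42 to 2.99 points, and Lfng 27 of 37 (the last base is a C whose CpG runs into the gene), from -9.62 to 11.6 points in the authors' deposited table. RRBS reads only MspI fragments of a chosen size, so not every CpG is listed. Notch1 had 4 of 32 and Jag2 22 of 108 CpG cytosines listed in the same stretch with no call, and Rfng and Notch3 had none listed. Further out the Jag2 flank did hold calls. The part of its start window beyond the gene's annotated end at 112929812 had 32 listed cytosines. Of these, 4 fell and 1 rose, and the 32 averaged -6.46 points in the authors' deposited table. The 22 cytosines listed in its 250 bases lie inside the annotated span and are not among the 32. All 133 cytosines listed in the promoter entries of these 7 genes fell on a C of a CG in the RefSeq sequence.

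Lfng (chromosome 5, 140607341 to 140615545) is the gene in which nothing was called: 0 of 119 listed cytosines, with a mean of -0.345 points, averaged over the authors' deposited table. It was also the only one of the 7 genes with a promoter sequence whose 250 bases held TGGGAA, the core of the Rbpj binding motif, searched on both strands (TGGGAA or TTCCCA). Of 32851 RefSeq promoters of the same length 21.6% held it. Lfng had 2 matches, starting 135 and 108 bases before the start. They are shown in capitals with 15 bases on each side, at chr5:140607191-140607226 and chr5:140607218-140607253.
Lfng match 1: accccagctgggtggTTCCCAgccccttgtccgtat
Lfng match 2: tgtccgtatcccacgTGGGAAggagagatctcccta
The second match overlaps a CACGTG, a motif that 6.02% of all these promoters and no other of the 7 genes held. A match of letters is not a binding site, and Lfng itself was not called in RNA.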

How the data were processed

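The 8 samples were grouped by the clone named in their labels into 4 groups of 2. The RNA-seq and RRBS tables each hold the authors' comparison, with no value per clone. Per the submitters' processing notes, the tools were Trim Galore, Bismark, Bowtie2, methylKit, TopHat2, HTSeq and DESeq2 with build mm10; no version, role or setting is stated. The authors deposited for RNA-seq a signal per gene (the mean over libraries, read from its header as a mean of counts divided by DESeq2 size factors), a log2 fold change with its standard error, a score equal to their ratio, a p-value and an adjusted p-value. Depth per library is unknown, so no counting interval is given. In the RRBS table the authors deposited per cytosine, a difference in methylation level (percentage points) with its p-value and q-value, without coverage; 253 duplicate lines were removed. Since no counts were given, no count model was fitted and the authors' values were used throughout.

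Calls were taken at an adjusted p or q under 0.05, with Python 3.11.15, pandas 2.3.3 and numpy 2.4.6. Intervals are the fold change with 1.96 standard errors on each side. Genes were placed with RefSeq annotation of GRCm38.p6, which gives no exons; starts and strand came from its promoter table, which matched 7 of the 10 genes. RNA libraries were made with a directional kit, per the labels' protocols, but whether counting used strand is not given, so overlapping genes are uncertain. Called runs and Benjamini-Hochberg adjustment were tested on simulated data. The genes named are the 10 Notch genes, each other pathway gene called, the 3 with the largest uncalled fold changes, and any added to show a group, which were chosen after their values were seen. Some genes of the pathway are not reported here. The genes and lists were chosen with earlier results of these data known. Alternatives were other thresholds, no filter on low counts, other windows and averaging of strands.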

Additional observations from a re-analysis of the deposited data

How the results depend on the processing

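The count of 1 Notch gene called higher held under every alternative run. The 2 called lower became 1 (Mfng) at an adjusted p under 0.01, 1 when genes with low counts were adjusted with the rest and 1 when a log2 fold change of at least 1 in size was required; Jag1 was lost each time. Other pathway genes called higher were 4 at an adjusted p under 0.01, and those called lower were 3 at an adjusted p under 0.1. Called cytosines in the Notch genes were 21 higher and 25 lower at q under 0.01, and 15 higher and 11 lower with a difference of at least 25 points. Window means moved by less than the SD over cytosines under every setting with cytosines listed, which is the only spread the table allows. An SD of single cytosines is wide beside a mean over many shared ones, so this says little about stability. The Notch2 window held the same 140 cytosines at 500 and 2000 bp, and that of Notch3 at 500 bp held only 2, with a mean of 3.31 points. The sign of small means changed for Notch3, Jag2 and Hey1. Leaving out each clone was not run, because the tables hold no value per clone. No paired analysis was possible because clone numbers differ between the groups and the tables carry no columns per clone. Coverage per cytosine and depth per library are unknown, so what depth limits cannot be measured here.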

Other observations

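Genes beside the Notch genes were looked up after the results above were seen, taking protein-coding genes within 100 kb. Card10, which encodes a scaffold protein of NF-κB signalling and lies 1607 bp from Mfng, fell, at -1.23 ± 0.36 (log2 fold change ± standard error) with adjusted p 0.0105 in the authors' deposited table. Of the other neighbours of Mfng, Elfn2 stood at -1.19 without an adjusted p and Cdc42ep1 at -0.54 (adjusted p 0.141) in the authors' deposited table. Lgals2, the remaining one, had a mean normalized count of 1.53 in the authors' deposited table. Among all tested genes 4.74% fell.

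Around Lfng, 3 of 4 tested neighbours rose while Lfng itself was not called, beside 6.15% of all tested genes. By log2 fold change in the authors' deposited table, these were Ttyh3 at 0.74 (adjusted p 0.00138), the sulfotransferase gene Chst12 at 0.79 (0.0425) and Iqce at 0.59 (0.0392). Brat1 stood at 0.41 (adjusted p 0.236) in the authors' deposited table and was not called. No protein-coding neighbour of Hes1 or Hey1 within 100 kb was in the RNA-seq table. That of Jag1, Slx4ip, lies 100 bp away and stood at -0.01 (adjusted p 0.991) in the authors' deposited table. Of 6 tested neighbours of Notch1, Snapc4 fell, at -0.74 (adjusted p 0.0240) in the authors' deposited table, and of 2 of Notch3, Rrp1b fell, at -0.57 (adjusted p 0.0306) in the authors' deposited table. Around Rfng, Jag2 and Notch2, 0 of 9, 0 of 5 and 0 of 1 tested neighbours were called, beside 10.9% of all tested genes.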
